A study of Mus musculus with 27 samples.

Results

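Described here are the 9 rows of a spike-in RNA sequencing table whose locus lies on the mitochondrial chromosome, out of 38582 rows in all. Every row at that position was taken, and all 9 passed the filter of a mean of at least 1 FPKM over the 4 RNA libraries. The unit was taken to be FPKM, a level per length of transcript (fragments per kilobase, relative to all mapped fragments, put on a spike-in scale), because the software named in the labels gives it and the table itself does not write it. The study concerned WDR43, a nucleolar WD-repeat protein, in mouse embryonic stem cells, pluripotent cells grown here in serum with leukemia inhibitory factor. RNA came from cells of wild-type genotype with a control short hairpin RNA knockdown (shCtl, 2 libraries, here also control) or one against WDR43 (shWDR43, 2 libraries, here also knockdown), and the table calls the 2 libraries of a group biological replicates. Chromatin immunoprecipitation (ChIP) sequencing added 17 peak lists. Of these, 5 mapped WDR43 with a FLAG antibody: 3 in cells with Fbio-tagged WDR43 under DMSO, DRB or ActD, 1 titled FB and 1 titled cFB-KI, a knock-in. The other 12 mapped RNA polymerase II (Pol II) in shCtl and shWDR43 cells, as 2 libraries each for the hypophosphorylated (hypoP), Ser5P and Ser2P forms. The labels do not say how long after the hairpins the cells were taken, or whether the cells were a single clone.

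The mitochondrial genome is a small circle present in many copies per cell. It encodes 13 proteins of the respiratory chain and ATP synthase, 2 ribosomal RNAs and 22 transfer RNAs in the RefSeq annotation. A polymerase of its own, POLRMT, transcribes it together with TFAM and TFB2M as long RNAs that span many genes. These are cut at the transfer RNAs that punctuate the genes, most messenger RNAs then gain a poly(A) tail, and the LRPPRC and SLIRP proteins stabilise them. Pluripotent stem cells rely strongly on glycolysis, and still carry and transcribe this genome.

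Most of the 9 rows bear the name of a cloned cDNA, not of a gene, and the table types all 9 as noncoding, Cox2 and Cytb included. Gene names were assigned from the RefSeq order of mitochondrial genes (GRCm38.p6, a later build than the mm9 of the table). The row Cox2 began and ended 3 bases from RefSeq COX2, and the row Cytb ended at the same base as CYTB. In order along the mm9 mitochondrial chromosome, AK140265 (bases 70 to 852) lies in mt-Rnr1, the small ribosomal RNA. GU332589 (1094 to 2681) holds mt-Rnr2, the large ribosomal RNA, and AK018753 (1149 to 3703) joins mt-Rnr2 with ND1. AK163440 (3849 to 4933) covers ND2, DQ539915 (5327 to 6938) covers COX1 and Cox2 (7010 to 7699) covers COX2. AK141672 (9203 to 9888) covers ND3 (348 of its bases), the end of COX3 (188 bases) and 12 bases of ND4L. BC071253 (11720 to 14070) covers ND5 and ND6, and Cytb (12406 to 15288) covers CYTB, ND6 and most of ND5. The rows together cover at least 50% of 8 of the 13 protein genes. ATP8, ATP6, COX3, ND4L and ND4 are not covered to that extent and are not analysed here. Members share sequence: 96.5% of GU332589 lies inside AK018753, and 70.8% of BC071253 lies inside Cytb. The table gives no strand, so values of overlapping rows, and of ND6, which is read from the opposite strand to its neighbours, are uncertain.

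The RNA of the knocked-down gene itself, Wdr43, measured 82.3 and 78.2 FPKM in control and 21.2 and 20.7 in knockdown cells. Summed FPKM of all rows was 1015232 and 1040749 in control and 687051 and 681178 in knockdown cells, and read depth is unknown because the table holds no counts. The 4 most abundant rows, all unnamed nuclear loci, made 40.3% and 42.6% of the total in control and 44.3% and 48.8% in knockdown cells. All 12 stem cell markers were detected, with a summed level of 5280 to 5395 FPKM in shCtl and 2703 to 2885 in shWDR43. The 12 fibroblast or feeder markers summed to 166 to 197 FPKM in shCtl and 226 to 316 in shWDR43, with Col3a1, Postn, Lum, Dcn and Fap below 1 FPKM in every library. Trophectoderm markers summed to 16.8 to 16.9 FPKM and 34.0 to 40.5, mesoderm or endoderm markers to 5.40 to 5.60 and 6.50 to 6.70, and neuroectoderm markers to 77.8 to 83.5 and 39.2 to 44.1. The part of these other cell types in the results below was not tested. The RNA is from bulk cells, so fewer mitochondrial genomes, fewer cells and less RNA per genome cannot be told apart.

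The mitochondrial rows were among the most abundant RNAs of the table, and their order of level was nearly the same in both groups. In shCtl, Cox2 (a catalytic subunit of cytochrome c oxidase, complex IV) stood at 12365 and 9794 FPKM and ranked 6th of all 38582 rows by its mean. DQ539915 (COX1, the largest catalytic subunit of the same complex) stood at 8758 and 8157 FPKM and ranked 7th. Next came AK018753 (2905 and 2880 FPKM), above every shCtl value of the rows that follow it. Cytb (the core subunit of complex III), AK140265, AK163440 (ND2) and AK141672 (ND3) had mean FPKM from 1978 to 2395, and each neighbour in that order overlapped the next, so neighbours do not differ beyond their spread, while both Cytb values lay above both of AK141672. BC071253 was far lower, at 505.5 and 446.6 FPKM, and ranked 171st of all rows. GU332589 was lowest, at 56.3 and 79.9 FPKM, and ranked 1172nd. In shWDR43 the order changed at AK140265, which moved from the fifth to the third place and stood above AK018753 in each library.

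**Figure D1:**
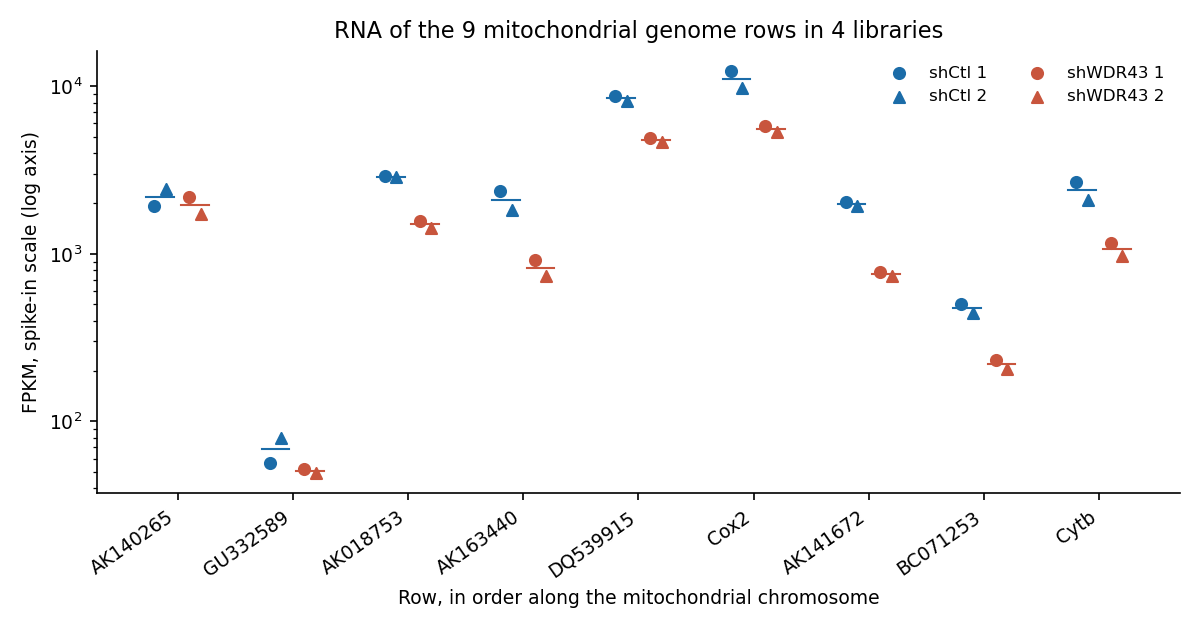
FPKM on the spike-in scale (log axis) of the 9 mitochondrial rows, in order along the chromosome, with 1 point per library and a line at each group's mean of 2. The shWDR43 points lie below the shCtl points for 8 rows, and the groups overlap for AK140265.

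RNA of the rows that hold protein genes was lower in shWDR43, by 1.77- to 2.62-fold, while the 2 rows that hold ribosomal RNA alone did not pass the test. AK018753, counted here among the rows with protein genes, shares more bases with the large ribosomal RNA mt-Rnr2 (1527) than with ND1 (953). Of the 9 rows, 7 were lower and 0 higher (limma, Benjamini-Hochberg adjusted p under 0.05). Of all 12452 tested genes, 42.7% were called lower and 6.10% higher. Both shWDR43 libraries lay below both shCtl libraries for 8 rows, against 63.6% of all tested genes. The median log2 fold change was -0.99 for the 9 rows, -0.39 for all tested genes and -0.85 for the 645 tested genes with a mean of at least 100 FPKM, of which 577 were lower and 9 higher. A fall of this size is thus common among RNAs of high level in these libraries.

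AK141672 and AK163440 fell most. AK141672 (ND3, a membrane subunit of NADH dehydrogenase, with the end of COX3, a complex IV subunit) measured 2030 and 1927 FPKM in control and 775 and 736 in knockdown cells. The libraries of each group were close together and the groups lay far apart. The group means were 1978 ± 72.5 and 755 ± 27.9 (SD, n = 2 each), a 2.62-fold fall, or -1.39 ± 0.09 in log2 fold change (SE, limma, Benjamini-Hochberg adjusted p = 0.000802). AK163440 (ND2, another membrane subunit of complex I) measured 2362 and 1835 FPKM in control and 922 and 734 in knockdown cells. Library 1 was the higher in each group, and the groups did not overlap. The group means were 2098 ± 372 and 828 ± 133, a 2.53-fold fall, or -1.34 ± 0.16 in log2 fold change (SE, limma, adjusted p = 0.00158). BC071253 (ND5 and ND6, subunits of the proton-pumping arm of complex I) measured 506 and 447 FPKM in control and 232 and 207 in knockdown cells. The groups were again apart, and the log2 fold change was -1.12 ± 0.12 (limma, adjusted p = 0.00134). AK018753 (large ribosomal RNA and ND1) measured 2905 and 2880 FPKM in control and 1569 and 1435 in knockdown cells. The shCtl libraries were within 1.01-fold of each other, and the log2 fold change was -0.95 ± 0.09 (limma, adjusted p = 0.00109).

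Cytb and the cytochrome oxidase rows fell too. Cytb measured 2690 and 2100 FPKM in control and 1161 and 976 in knockdown cells, with library 1 the higher in each group and no overlap. The group means were 2395 ± 417 and 1069 ± 130 (SD, n = 2 each), a 2.24-fold fall, or -1.16 ± 0.15 in log2 fold change (limma, adjusted p = 0.00178). Cox2 stood at 5819 and 5311 FPKM in shWDR43, 1.99-fold below its shCtl mean, with a log2 fold change of -0.99 ± 0.12 (limma, adjusted p = 0.00171). DQ539915 (COX1) stood at 4901 and 4659 FPKM in shWDR43. Its 1.77-fold fall was the smallest among the 7 rows called lower, with a log2 fold change of -0.82 ± 0.08 (limma, adjusted p = 0.00112).

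The 2 rows of ribosomal RNA alone showed a smaller difference or one within the spread. AK140265 (small ribosomal RNA) measured 1919 and 2426 FPKM in control and 2187 and 1740 in knockdown cells. The groups overlapped, and the higher shWDR43 library lay above the lower shCtl library. Its log2 fold change was -0.14 ± 0.15 (limma, adjusted p = 0.453), and single knockdown and control libraries differed by -0.48 to 0.19. GU332589 (large ribosomal RNA) measured 56.3 and 79.9 FPKM in control and 51.7 and 49.1 in knockdown cells. The groups were apart, by less than the shCtl libraries differed from each other. Its log2 fold change was -0.41 ± 0.18 (limma, adjusted p = 0.0987), -0.65 without shCtl library 1 and -0.16 without shCtl library 2. AK018753, which also holds 96.5% of mt-Rnr2, had a shCtl mean of 2893 FPKM and fell 1.93-fold. How reads of mt-Rnr2 were divided between these 2 rows was not tested, so the large ribosomal RNA gave no single answer. The labels say that mRNA was purified on Dynabeads, and the ribosomal RNAs of mitochondria carry at most short adenosine tails, and how far each was captured was not tested. In the authors' deposited table, signed fold changes ran from -1.11 for AK140265 to -2.62 for AK141672.

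**Figure D2:**
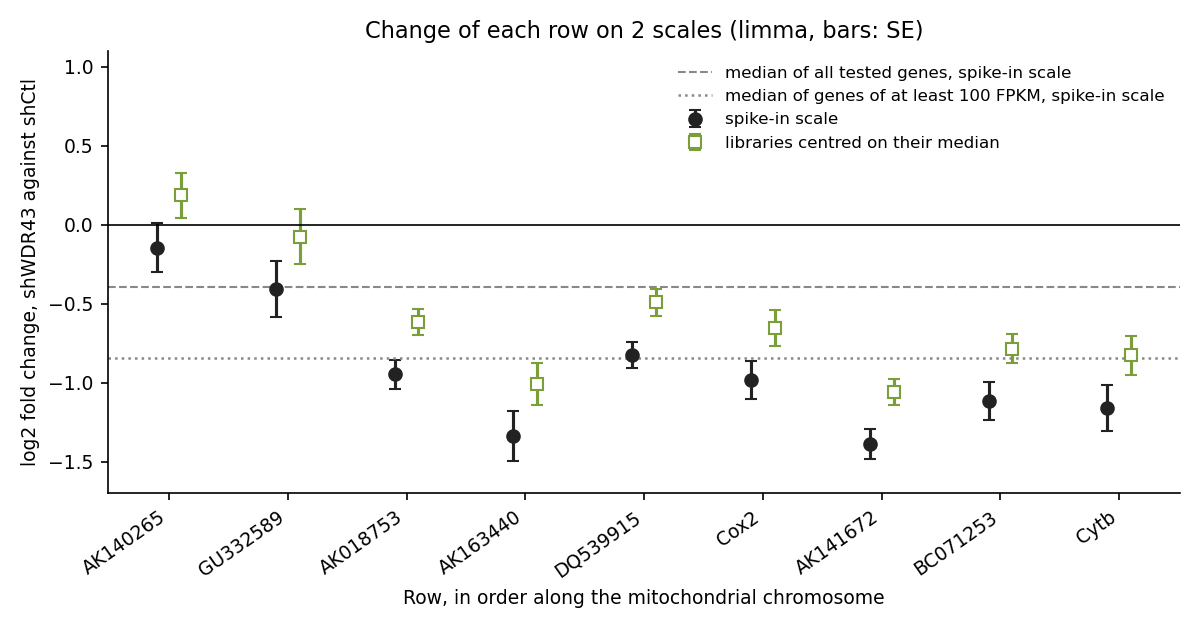
Log2 fold change with its SE for each row on the deposited spike-in scale (filled circles) and with libraries centred on their median (open squares), beside the medians of all tested genes and of genes of at least 100 FPKM. The 7 rows from AK018753 to Cytb lie below 0 on each scale, while AK140265 moves from -0.14 to 0.18.

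How much of the fall remained depended on the scale, and the spike-in scaling cannot be checked here. With libraries centred on their median, 7 rows were still lower and 0 higher, beside 20.9% and 13.0% of all genes. The median of the rows was -0.66. Of the 645 genes of at least 100 FPKM, 462 were lower and 24 higher after centring, with a median of -0.52. AK141672 (-1.06) and AK163440 (-1.01) had the lowest values on that scale and DQ539915 the highest of the 7 (-0.49). AK140265 then stood at 0.18 (adjusted p = 0.358) and GU332589 at -0.08 (adjusted p = 0.765), neither past the threshold. With libraries scaled to the total off the mitochondrial chromosome, the same 7 rows were lower and AK140265 was higher (log2 fold change 0.43, limma, adjusted p = 0.0491), beside 7.77% and 16.1% of all genes. The median of the rows was then -0.41, beside -0.27 for the 645 genes of at least 100 FPKM, of which 232 were lower and 38 higher. Scaled to the total of protein-coding rows (added after seeing the data), 5 rows were lower and 1 (AK140265) higher, beside 6.83% and 25.8%. DQ539915 and Cox2 missed the threshold. Of the 645 genes of at least 100 FPKM, 206 were then lower and 78 higher. With the library number as a replicate block, 7 were lower and 0 higher, beside 47.6% and 6.75%. With no filter on low values, limma called 0 of the 9 rows, beside 1.64% lower and 0.718% higher of 38582 rows. At an unadjusted p under 0.05, 5 of the 9 were lower, beside 5887 lower and 1382 higher of the 38582. Leaving out any of the 4 libraries left no call of any gene, and the median log2 fold change of the rows then ran from -1.15 to -0.92.

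Ratios between the rows of a library do not depend on that scaling. Those of AK140265 and GU332589 to the rows with protein genes, AK018753 with its mt-Rnr2 part among them, were higher in the knockdown. The ratio of AK140265 to DQ539915 (COX1) was 0.219 and 0.297 in control and 0.446 and 0.374 in knockdown cells. Its ratio to AK141672 (ND3) was 0.945 and 1.26 in control and 2.82 and 2.37 in knockdown cells, and its ratio to Cytb was 0.713 and 1.16, then 1.88 and 1.78. The ratio of GU332589 to AK141672 was 0.0277 and 0.0415 in control and 0.0667 and 0.0667 in knockdown cells. For AK140265 and for GU332589, the ratio to each of the 7 rows with protein genes was higher in both shWDR43 libraries than in both shCtl libraries. The same held for 59.8% of the tested genes off the mitochondrial chromosome, and for 31.9% of those of at least 100 FPKM, so it is not particular to these rows. AK140265 over GU332589 was 34.1 and 30.4 in control and 42.3 and 35.4 in knockdown cells. With 2 libraries against 2, an exact two-sided permutation test cannot go below p = 0.333, so these ratios are given as values. Among the ratios whose groups overlapped were BC071253 to Cytb (0.188 and 0.213 in shCtl, 0.200 and 0.212 in shWDR43) and AK141672 to AK163440 (0.859 and 1.05, then 0.841 and 1.00). The first of these pairs shares sequence, and the second does not. AK018753 stood 51.6- and 36.0-fold above GU332589 in shCtl and 30.3- and 29.2-fold above it in shWDR43, although they share 1533 bases.

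**Figure D3:**
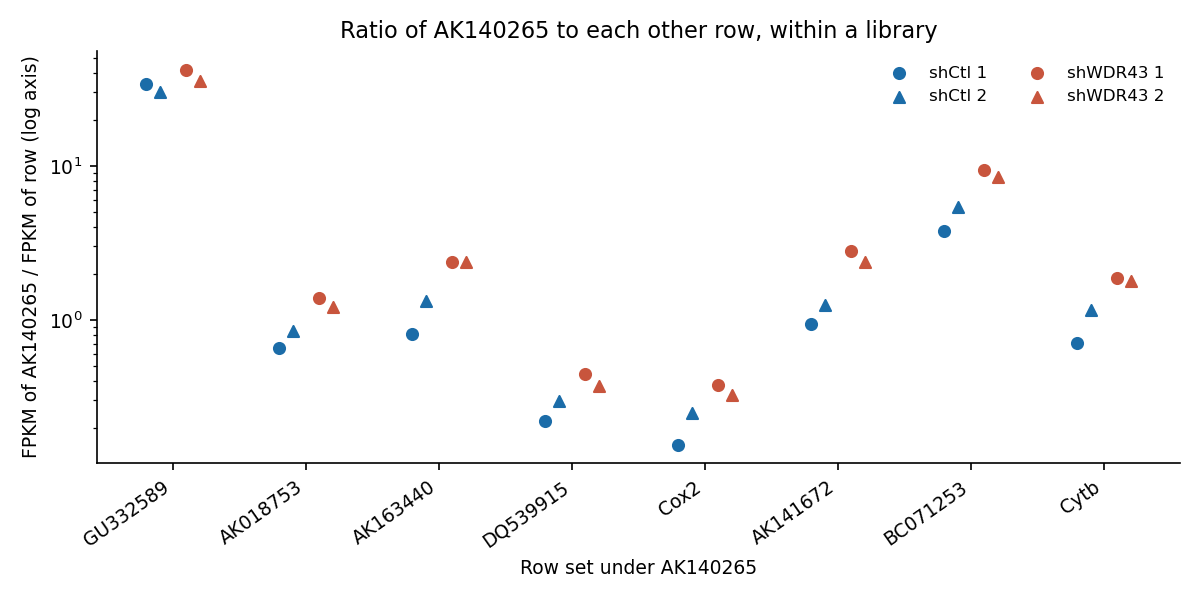
FPKM of AK140265 (small ribosomal RNA) divided by that of each other row (log axis), with 1 point per library. For all 8 rows the shWDR43 points lie above the shCtl points, as for DQ539915, with 0.219 and 0.297 in control and 0.446 and 0.374 in knockdown cells.

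The control libraries did not differ in the same direction for all rows. Library 1 of shCtl stood above library 2 for 7 rows, by up to 1.29-fold at AK163440, and the 2 ribosomal RNA rows AK140265 and GU332589 stood 1.26- and 1.42-fold higher in library 2. In shWDR43, library 1 stood above library 2 for all 9 rows, by up to 1.26-fold. Library 1 was also the higher over all tested genes, so this is not particular to the rows. The median of log2(FPKM + 1) was 3.05 and 2.94 in shWDR43, and 3.35 and 3.31 in shCtl.

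Summed over the 9 rows, mitochondrial RNA was 33590 and 29646 FPKM in control and 17617 and 15846 in knockdown cells, with means of 31618 ± 2789 and 16732 ± 1252 (SD, n = 2 each), 1.89-fold apart. The groups did not overlap, and the exact two-sided permutation p = 0.333 is the smallest this design allows. As a share of the library total, the sum was 3.31% and 2.85% in control and 2.56% and 2.33% in knockdown cells. The groups were apart in share as well, by -0.633 percentage points (exact permutation p = 0.333), and by -0.403 without shCtl library 1. Relative to the total of protein-coding rows, the sum came to 6.68% and 5.89% in control and 5.45% and 5.38% in knockdown cells. Within the sum, Cox2 and DQ539915 made 34.9% and 26.8% in control and 33.3% and 28.6% in knockdown cells, while AK140265 made 6.95% and then 11.7%.

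**Figure D4:**
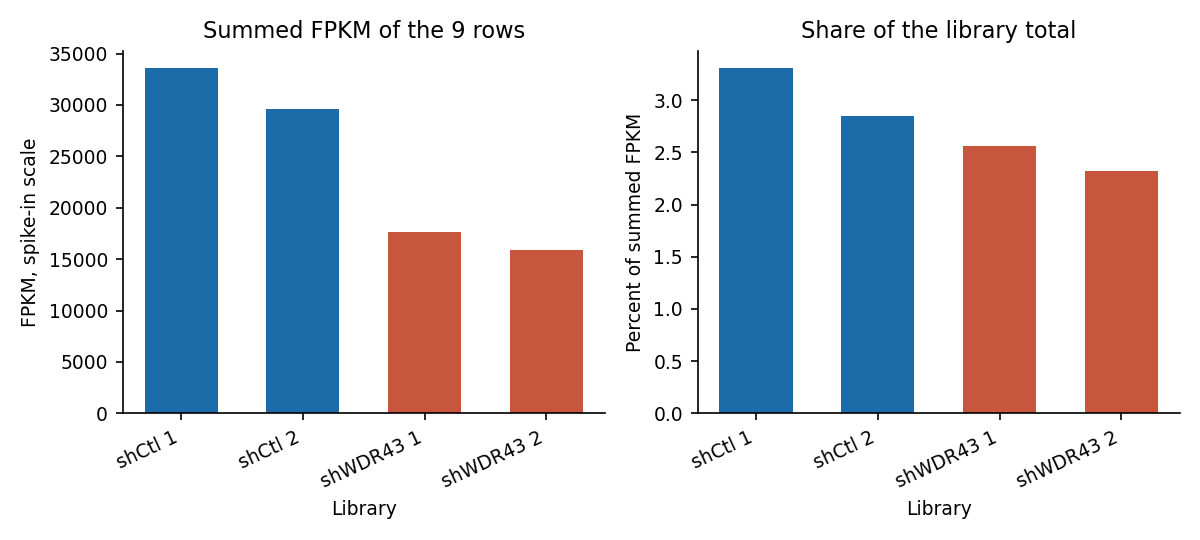
Summed FPKM of the 9 mitochondrial rows (left) and that sum as a percent of the library total (right), 1 bar per library. The sum was 33590 and 29646 in control and 17617 and 15846 in knockdown cells, and the share went from 3.31% and 2.85% to 2.56% and 2.33%.

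Rows of chromosome 1 bear on the mitochondrial genes as well. A row named Atpase6, the older name of ATP synthase subunit 6, a mitochondrial gene, has its locus on chromosome 1 (24620810 to 24621651, mm9). RefSeq gives Atpase6 as a synonym of Gm10925, a pseudogene on chromosome 1. Copies of mitochondrial DNA in nuclear chromosomes are well known, and reads of near-identical copies may be shared between the row and the mitochondrial gene. Atpase6 stood at 13514 and 10398 FPKM in shCtl, above Cox2 in each of those libraries, and at 5539 and 4473 in shWDR43. Its 2.39-fold fall gave a log2 fold change of -1.25 ± 0.15 (limma, adjusted p = 0.00161), within the range of the 7 mitochondrial rows called lower. As in 7 of the 9 mitochondrial rows, library 1 of shCtl was the higher. An unnamed neighbour, XLOC_000831 (24622509 to 24623031), measured 2443 and 2400 FPKM in control and 1600 and 1584 in knockdown cells, with a log2 fold change of -0.60 ± 0.09 (limma, adjusted p = 0.00239). Scaled to the total off the mitochondrial chromosome, Atpase6 was still lower (-0.67, adjusted p = 0.0134) and XLOC_000831 was not (-0.03, adjusted p = 0.832). These rows were chosen after their values were seen. From which copy the RNA of the Atpase6 row came was not tested. Whether any of the 9 mitochondrial rows, Cox2 and AK141672 included, share reads with copies on chromosome 1 or elsewhere was not tested either. Added to the 9 mitochondrial rows, the Atpase6 row brought their sum to 43574 ± 4992 FPKM in shCtl and 21738 ± 2006 in shWDR43 (SD, n = 2 each), 2.00-fold apart.

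None of the 227913 peaks in the 17 lists lay on the mitochondrial chromosome, for WDR43 or for Pol II. The lists held 407 to 41552 peaks on 26 to 32 named chromosomes or unplaced sequences. Whether reads of the mitochondrial chromosome were kept for peak calling is not stated in the labels or lists, so these lists do not show that binding was absent. At the Atpase6 row of chromosome 1, 14 of the 17 lists held a peak that covered the whole row. ChIP reads of near-identical copies may be shared as well, and from which copy those of this peak came was not tested. The peak therefore does not by itself show binding at the nuclear copy. All 12 Pol II lists held this peak, and among the WDR43 lists those of DMSO and the cFB knock-in did. Its start lay between 24617988 and 24618381 and its end between 24623023 and 24623491 (chromosome 1, mm9), so its edges moved by no more than 393 and 468 bp between lists. It was 4653 to 5504 bp wide. The authors' peak score, used here only within a list, placed it 46th of 31189 peaks under DMSO and 4th of 21553 in the knock-in, where 13 peaks shared its score of 3100. In DMSO it was the third widest peak of the list, where the median width was 236 bp. In the Pol II lists it ranked 23rd to 332nd by score for hypoP, 36th to 43rd for Ser5P and 100th to 253rd for Ser2P. The nearest peak lay 27214 bp away in the FB list, which had the most peaks of all, 119249 bp away under DRB and 839286 bp away under ActD. Each WDR43 condition has 1 library, so these differences have no replicate error.

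**Figure D5:**
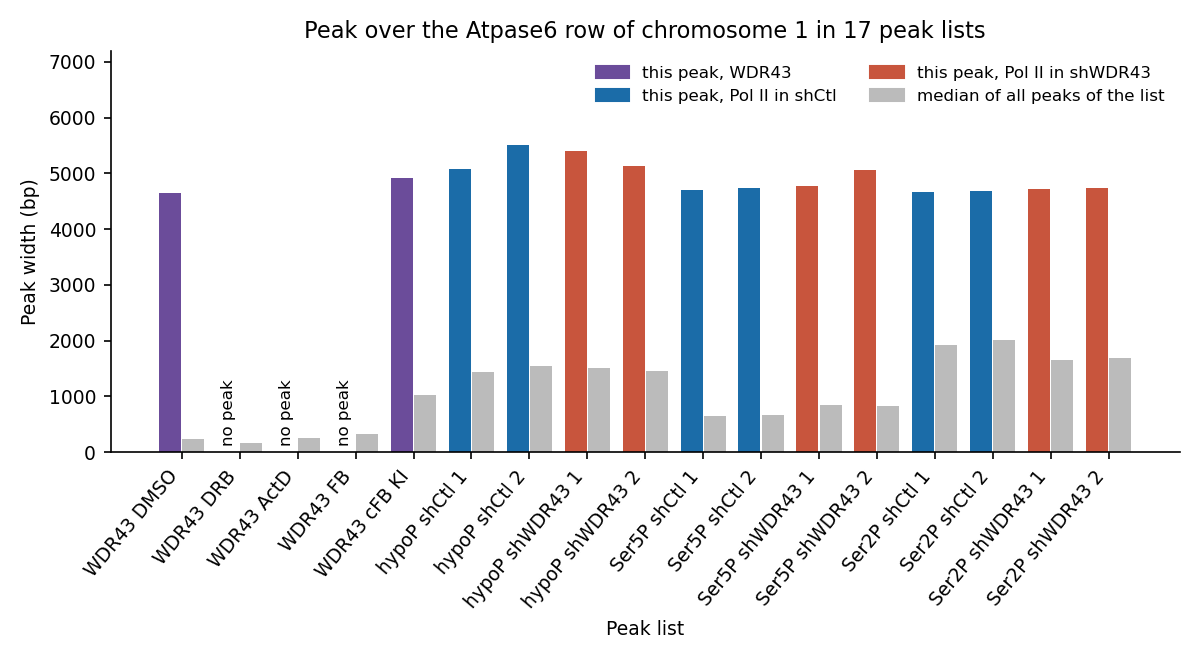
Width in bp of the peak over the Atpase6 row of chromosome 1 (coloured bars) and median width of all peaks in the same list (grey bars) for the 17 peak lists. The peak was 4653 to 5504 bp wide in 14 lists, wider than each list's median. It was not called for WDR43 under DRB, under ActD or in the FB list. Whether its reads came from the nuclear or the mitochondrial copy was not tested.

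RNAs of nuclear genes that transcribe the mitochondrial genome and handle its RNA were lower for the most part on the spike-in scale, and less so or not on others. Of 17 genes of mitochondrial transcription and replication, 11 were lower and 0 higher, beside 42.7% and 6.10% of all tested genes, and their median change was -0.54 on the log2 scale, beside -0.39. Polrmt, the polymerase, measured 9.60 and 10.6 FPKM in control and 8.20 and 7.70 in knockdown cells, and did not pass (log2 fold change -0.31, limma, adjusted p = 0.0984). Tfam, which packages the genome and opens its promoters, fell from 27.7 and 24.9 to 15.3 and 13.3 FPKM (-0.84, limma, adjusted p = 0.00393), and Tfb2m (-0.70) and the elongation factor Tefm (-0.81) fell too. Ssbp1, the single-strand binding protein of replication, had the lowest value of the list (-1.03), and Top1mt the highest (0.26), which did not pass. Of 20 genes of mitochondrial RNA processing and decay, 17 were lower and 0 higher (median -0.82). Slirp fell most, from 248 and 197 to 101 and 83.5 FPKM (-1.26, limma, adjusted p = 0.00178), followed by Ptcd3 (-1.14), while its partner Lrpprc fell by 0.57 on the log2 scale. The poly(A) polymerase Mtpap (-0.85) and the degradosome genes Pnpt1 (-0.83) and Supv3l1 (-0.80) fell as well, while Fastk (-0.24) and Grsf1 (-0.12) did not pass. After centring, 5 genes of the first list were lower and 1 higher, and 13 and 0 of the second, beside 20.9% and 13.0% of all genes. Polrmt then stood at 0.02. Scaled to the total off the mitochondrial chromosome, 0 of the first list were lower and 1 higher (limma, median -0.07), and 3 and 0 of the second (median -0.27), beside 7.77% and 16.1%. Scaled to protein-coding rows, the median of the first list turned to 0.02.

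The nuclear partners of the mitochondrial subunits showed the same dependence on scale. On the spike-in scale 28 of 36 nuclear subunits were lower for complex I (median log2 fold change -0.64), 9 of 9 for complex III (-0.82), 10 of 11 for complex IV (-0.75) and 15 of 15 for complex V (-0.96), with 0 higher. Of all tested genes 42.7% were lower, with a median of -0.39, and of those of at least 100 FPKM 577 of 645. After centring, 14, 7, 6 and 14 subunits of these complexes were lower, beside 20.9% of all genes, and 1, of complex I, was higher. Scaled to the total off the mitochondrial chromosome, 1 of complex I, 1 of complex III, 2 of complex IV and 9 of complex V were lower, and 3 of complex I were higher, beside 7.77% and 16.1% of all genes. Scaled to protein-coding rows, the median of complex I turned to 0.06 with 8 subunits higher (25.8% of all genes were), while that of complex V was -0.26. Cox6c (-1.28), Ndufv3 (-1.26), Atp5k (-1.22) and Uqcrh (-1.06) each had the lowest value of their own complex, IV, I, V and III in that order. Ndufs5 (0.65), Ndufb6 (-0.03) and Cox8a (-0.35) did not pass. Summed over the nuclear subunits of complex I, the level was 3596 ± 114 FPKM in control and 2397 ± 127 in knockdown cells (SD, n = 2 each). The sum over complex IV was 1.63-fold lower, beside 1.77-fold for COX1 and 1.99-fold for COX2. Whether mitochondrial and nuclear subunits differ was not tested. Of 23 genes of mitochondrial membranes and matrix, 22 were lower (median -0.98), and 9 when scaled to the total off the mitochondrial chromosome. The chaperonin Hspd1 (-1.40) and the carrier Slc25a5 (-1.23) had the lowest values, and Mfn2 (-0.44) did not pass. Of 12 nuclear regulators 10 were tested: 8 were lower and 1 was higher (median -0.60), and the median turned to 0.05 when scaled to protein-coding rows. Gabpa (-0.95) and Pprc1 (-0.84) fell, Nfe2l2 (-0.40) did not pass, and Esrra, at 2.10 to 4.30 FPKM, rose (0.54, limma, adjusted p = 0.0428).

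Among 637 other genes with a mean of at least 100 FPKM, the 3 whose pattern over the 4 libraries was nearest to the mean of the 9 rows were Cct2, Eif4b and Cox7b. Likeness was the Euclidean distance of log2(FPKM + 1) values, each gene centred on its own mean, and was 0.0350, 0.0378 and 0.0466. Cct2, a chaperonin subunit, measured 376.3 and 348.7 FPKM in control and 200 and 178 in knockdown cells. With 4 libraries in 2 groups, many genes follow nearly the same pattern.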

How the data were processed

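Of the 27 labelled samples, the 4 RNA libraries and the 17 ChIP samples with a peak list were used, grouped by title. Other ChIP samples, of full-length WDR43 and of its N- and C-terminus, had no peak list here. The authors deposited FPKM-like values with 1 decimal, made with TopHat and Cufflinks on mm9 per the submitters' processing notes. How the spike-in scaling was done is not stated there. A signed fold score and an unadjusted p-value per gene are the authors' deposited values, and the test behind that p-value is not given. Peak scores are the authors', at least 50 in every list, with MACS peak names in the lists and Bowtie2 alignment per the submitters' processing notes.

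Values were compared with limma 3.58.1 (R 4.3.3, intensity trend) on log2(FPKM + 1) of 12452 genes with a mean of at least 1, which understates changes of low genes. P-values were adjusted by Benjamini-Hochberg, with a threshold of 0.05. The fit was run on simulated data with normal errors and few changed genes, as a check of the code. The data here shifted mostly downwards over many genes, so that check does not bear on the calls. Library sums were compared by an exact permutation test.

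All 9 members were named, and of each list the genes with the 2 highest and 2 lowest changes, some of which are left out of the text. Members of the RNA machinery outside that rule (Polrmt, Tfam, Tfb2m, Tefm, Lrpprc, Mtpap, Pnpt1 and Supv3l1) were named for their role. Pairs of gene names were matched through RefSeq synonyms. Members and lists were chosen with earlier results of these data known. Loci were read as 0-based starts and are printed 1-based.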

Additional observations from a re-analysis of the deposited data

How the results depend on the processing

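The direction of the 7 rows called lower held under every alternative run, and their calls under pseudocounts of 0.1 and 5, without the intensity trend, with median centring, with scaling to the total off the mitochondrial chromosome and with the replicate block. Same-numbered libraries share only a number, and their deviations from the group means had r = 0.0504 across 12452 genes. With the replicate block 7 rows were lower, and of all genes 5926 were lower and 840 higher. The block changed no call of a row, and moved the higher genes of the nuclear lists from 1 to 2. No call survived when a library was left out (0 to 0 rows, 0 to 0 of all genes in either direction, and 0 to 0 genes of the nuclear lists), with 1 residual degree of freedom in limma. In these fits an unadjusted p under 0.05 was found for 7 to 8 lower rows, 3903 to 4953 lower genes and 538 to 742 higher genes. The median of the rows then ran from -1.15 to -0.92, and that of AK140265 from -0.31 to 0.024, above 0 without shCtl library 2 and without shWDR43 library 2. Without the filter on low values limma called 0 rows, with adjusted p from 0.0598 upwards. At an unadjusted p under 0.05, 5 rows were lower, beside 5887 lower and 1382 higher of 38582 genes. Adjusted calls were 633 genes lower and 277 higher in all, and 19 and 0 in the nuclear lists, against 120 and 1 with the filter. The cause of this drop in calls was not tested. Centring gave a row median of -0.66, 2606 genes lower and 1615 higher, and 79 and 3 in the nuclear lists. Scaling to the total off the mitochondrial chromosome, which put the median of all genes at 0.10, gave a row median of -0.41, with 1 row higher, 970 genes lower and 2012 higher, and 25 and 5 in the nuclear lists. Against 0.18 after centring, AK140265 was then at 0.43 and GU332589 at 0.16. Scaling to the total of protein-coding rows, added after seeing the data, put the median of all genes at 0.21 and that of the rows at -0.28, with 5 rows lower and 1 higher (AK140265, 0.56), 855 genes lower and 3232 higher, and 25 and 15 in the nuclear lists. DQ539915 (-0.12, adjusted p = 0.258) and Cox2 (-0.28, adjusted p = 0.109) then missed the threshold, GU332589 stood at 0.29 and XLOC_000831 at 0.10. The log2 ratio of the summed FPKM was -0.92, -0.34 after scaling to the total off the chromosome and -0.21 after scaling to protein-coding rows. The difference of the share was -0.367 percentage points without Cox2, and -0.863 to -0.403 with a library left out. No chromosome M peak appeared at a score of at least 100. The 14 lists kept their Atpase6 peak at that score, and none had 50% of its width in the row.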
